A study of Drosophila melanogaster with 6 samples.

Results

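The genes described here are cytochrome P450 genes of 2 clans of Drosophila melanogaster, the CYP4 clan and the mitochondrial clan. They were taken by symbol, from the families Cyp4, Cyp311, Cyp312, Cyp313, Cyp316 and Cyp318 of the CYP4 clan and Cyp12, Cyp49 and Cyp301 of the mitochondrial clan. Of 11981 genes with a probe set of their own on the array, 40 met this rule, 32 in the CYP4 clan and 8 in the mitochondrial clan. RefSeq lists 41 such symbols, and the remaining gene, Cyp12d1-p, had no probe set annotated to it alone. Each gene is represented by its brightest probe set, and 39 of the 40 have only 1. The rule used no measured values.

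RNA was taken from whole prepupae at 0 h, immediately after pupariation, and hybridised to Affymetrix Drosophila Genome arrays. Animals homozygous for the sox14L1 allele in the w1118 background were assayed on 3 arrays, and w1118 animals on another 3, as controls. Each array held RNA of 10 pooled prepupae, and all animals were raised on standard medium at the same temperature. The design text calls the assays independent, but no label states that the pools came from separate cultures. The p-values therefore reflect only how far these samples spread, which may be technical.

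Cytochrome P450 enzymes bind heme and use electrons to insert oxygen into small molecules. CYP4 enzymes sit in the endoplasmic reticulum, draw electrons from the reductase Cpr and are best known for oxidising fatty acids, while mitochondrial P450s draw them from ferredoxins inside the mitochondrion. In insects both clans hold enzymes for the animal's own lipids and hormones as well as enzymes that break down plant toxins and insecticides, many of them active in midgut, Malpighian tubules and fat body. Sox14 is an HMG-box transcription factor whose transcript is induced by the steroid ecdysone.

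Levels are log2 values as deposited, and each change is the mutant mean minus the control mean, in log2 units, ± its standard error. Sox14 itself read 10.34, 10.67 and 10.73 in the mutant, against 11.40, 11.60 and 11.72 in the control. It was lower on every mutant array but still bright there, and the sources used do not say how its probe set lies to the mutated site. Arrays of the same genotype correlated at 0.993 to 0.996. Control probe sets for 18S rRNA set the first mutant array apart, averaging 12.18 there and 7.56 to 7.94 on the other 5 arrays. The second mutant array stood apart in larval glue genes, with Sgs3 at 10.04 there against 14.02 and 13.26 on the other mutant arrays, and Sgs5 at 10.74 against 13.57 on both. Whether these differences bear on any result was not tested, and values without the first array are given where they change a call. Fbp1, a fat body gene of the late larva, stood at 15.33 ± 0.05 in the mutant and 15.33 ± 0.03 in the control (SD, n = 3 each). Fbp1 alone does not show that the genotypes matched in stage or tissue. Of the 6 fat body markers, 1 rose and 2 fell, as given below. A gene is said to lie in the low range of an array where its value is below the 95th percentile of 98 control probe sets. This limit was 5.73 to 5.99 depending on the array. There RMA compresses differences, and no size is given for a gene in that range on all 6 arrays.

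Of the 40 genes, 8 rose and 4 fell in the mutant at an adjusted p under 0.05 (limma, Benjamini-Hochberg over 18769 probe sets). Over all genes 24.7% were called, 11.3% higher and 13.4% lower. Without the first mutant array, 6 of the 40 rose and 4 fell, and without the second, 7 rose and 4 fell. Over all genes, 1066 rose and 1218 fell without the first mutant array, against 1354 and 1605 with all 6 arrays. Leaving out any 1 array lowered the number of called probe sets, to 2493 to 3268 from 3577. Whether a lost call reflects the array left out was not tested. Calls with a change over 1 numbered 6 of the 40, 1 of them in the low range on all 6 arrays, and such calls made up 6.2% of all genes. The median change was 0.06 for the 40 genes and -0.03 for all genes. The 2 genotypes did not overlap for 19 of the 40, where 42.8% of all genes do not overlap. In all, 21 of the 40 lay in the low range on all 6 arrays, and 3 of the 12 calls are among these. The 2 clans gave 5 rises and 3 falls among 32 CYP4 clan genes, and 3 rises and 1 fall among 8 mitochondrial clan genes.

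**Figure D1:**
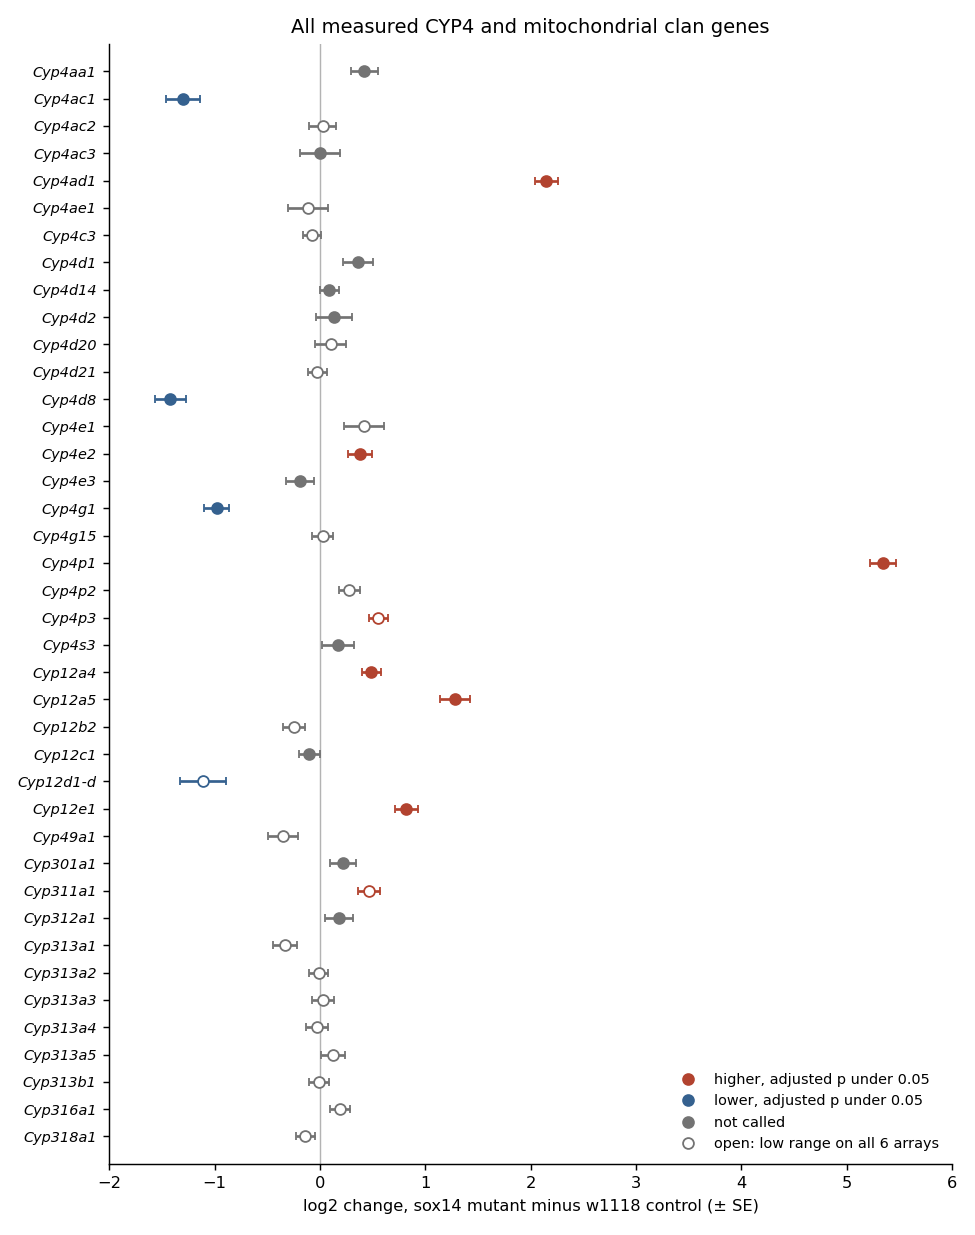
Change (sox14 mutant minus w1118 control, log2, ± SE from limma) of each of the 40 genes, with red for higher, blue for lower and grey for not called, and open circles for genes in the low range on all 6 arrays. Cyp4p1 (5.34) and Cyp4ad1 (2.15) stand to the right of all others, and Cyp4d8 (-1.42), Cyp4ac1 (-1.30) and Cyp4g1 (-0.98) are the lowest filled points.

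The largest rises among the 40 genes were those of Cyp4p1 and Cyp4ad1, which lie in separate groups of CYP4 genes on chromosome arm 2R. Cyp4p1 read 11.91, 11.87 and 11.54 on the mutant arrays, against 6.34, 6.45 and 6.50 on the control arrays. It was well above the low range in the mutant and just above it in the control. The change of 5.34 ± 0.12 (adjusted p = 1.85e-07) is a 40.6-fold higher value, a size that is uncertain with control values so near that range. Cyp4ad1 read 10.79, 11.03 and 11.09 in the mutant, against 8.93, 8.80 and 8.75 in the control. All 3 mutant values lay above all 3 control values, with a change of 2.15 ± 0.11 (adjusted p = 4.14e-06), a 4.43-fold higher value. Cyp4e2 read 12.47, 12.35 and 12.29 in the mutant, against 11.99, 11.81 and 12.17 in the control. Here the genotypes lay close together, and the change of 0.38 ± 0.11 passed the test narrowly (adjusted p = 0.0488). Its call was lost in 7 of 13 alternative fits, among them the fit without the first mutant array (adjusted p = 0.143; 0.0232 to 0.143 over the 13).

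Neighbours of these genes did not all share the change. RefSeq places Cyp4p2, Cyp4p1 and Cyp4p3 next to each other with no other measured gene between them. Cyp4p3 was called higher (adjusted p = 0.00347), with 5.41, 5.40 and 5.32 in the mutant and 4.84, 4.71 and 4.91 in the control, all within the low range. Cyp4p2 was not called (adjusted p = 0.0984) and averaged 4.82 ± 0.06 on the mutant arrays and 4.54 ± 0.14 on the control arrays (SD, n = 3 each), also in the low range. On the sides of this group, hig, which encodes a secreted protein of the synaptic cleft, was dim in both genotypes and not called (adjusted p = 0.715), and Tsen15, named for a subunit of the tRNA splicing endonuclease, rose by 0.77 ± 0.15 (adjusted p = 0.009). Cyp4ad1, Cyp4e2 and Cyp4e1 form the other group. Cyp4e1 lay in the low range on every array and was not called (adjusted p = 0.18), with 5.22, 5.11 and 4.94 in the mutant and 4.66, 4.26 and 5.08 in the control. CSN7, a subunit of the COP9 signalosome, lies on one side and changed by -0.04 ± 0.09 (adjusted p = 0.815). The maltase gene Mal-A1 lies on the other side, with 8.47 ± 0.32 in the mutant and 5.64 ± 0.03 in the control (SD, n = 3 each). It was at least 5.65-fold higher (adjusted p = 5.3e-06), a bound because its control values are in the low range, and it is also 1 of the midgut markers described below.

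**Figure D2:**
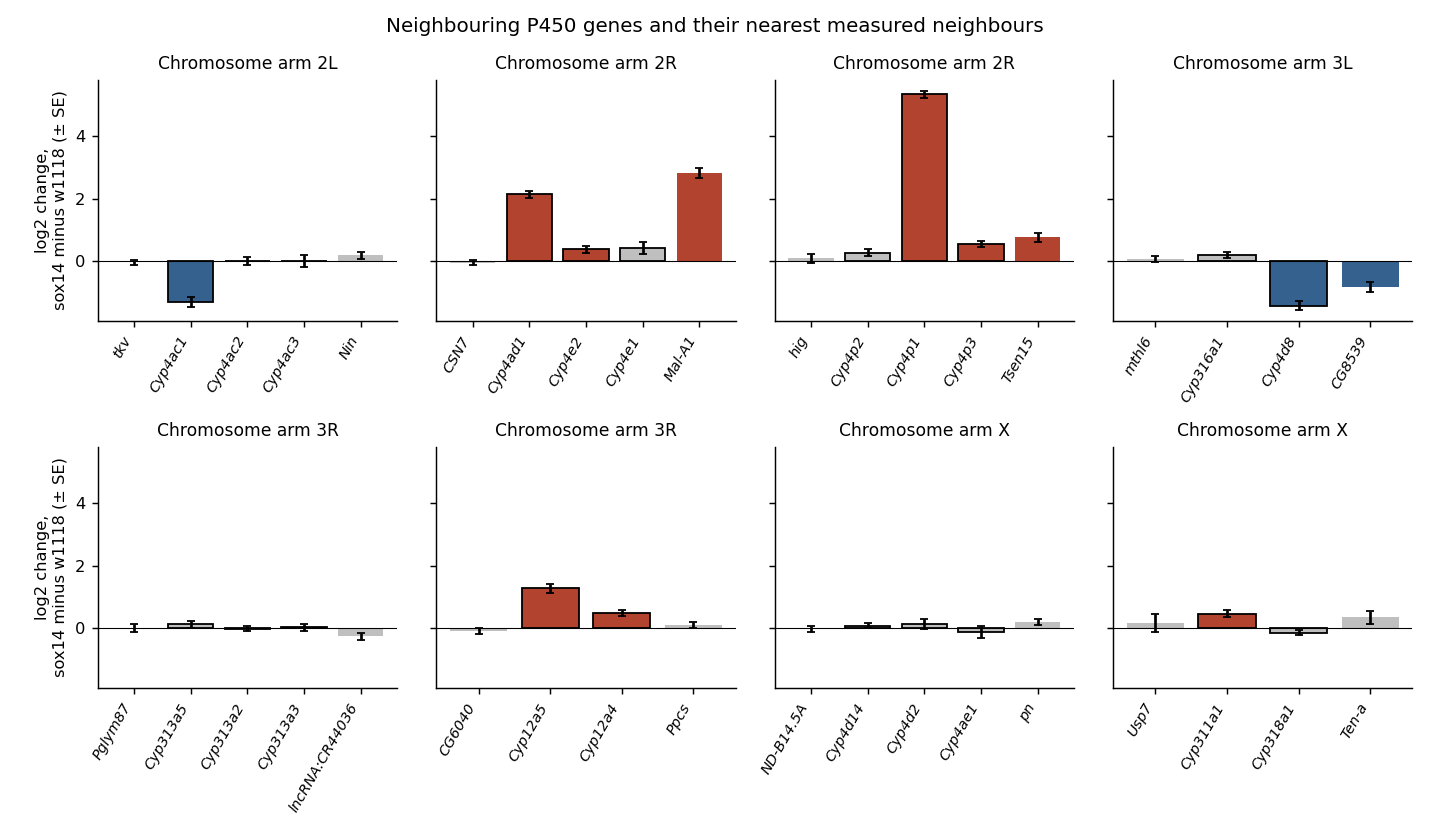
Log2 change (sox14 mutant minus w1118 control, ± SE) along the 8 runs of neighbouring members in RefSeq order, each with the nearest measured gene on either side, members outlined in black, red for higher, blue for lower and grey for not called. Large and small changes stand within the same run, as in Cyp4ad1 (2.15) next to Cyp4e2 (0.38), and in Cyp4ac1 (-1.30) near Cyp4ac3 (-0.00). Beside Cyp4p1 (5.34), Cyp4p2 and Cyp4p3 lay in the low range on every array, so the sizes of their changes cannot be compared with that of Cyp4p1.

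Sox14 lies on chromosome arm 2R as well. Of the 12 called genes, 5 lie on 2R and 1 on 2L, and for these 6 an effect of Sox14 cannot be told apart from other variants linked to it on that chromosome. On 2R, 5 of 11 members were called, where 28.1% of the arm's 2427 measured genes were. The 6 called genes on other chromosomes were Cyp12a5, Cyp12a4 and Cyp12e1 on 3R, Cyp4d8 on 3L, and Cyp4g1 and Cyp311a1 on the X, 4 higher and 2 lower. Linked variants may act on genes of other chromosomes too, so for these genes the 2 cannot be told apart either. Of the 54 genes that flank the members as nearest measured genes, 4 rose and 6 fell, or 18.5%. One of them is ebo, beside Cyp4g1 on the X, which changed by -0.87 ± 0.12 (adjusted p = 0.00104).

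Among the CYP4 genes that fell, Cyp4g1 encodes the enzyme of oenocytes that turns long-chain aldehydes into the hydrocarbons of the cuticle. It read 9.80, 10.18 and 10.08 in the mutant, against 11.07, 10.90 and 11.02 in the control. The mutant values all lay below the control values, and the first mutant array was the lowest. The change of -0.98 ± 0.12 (adjusted p = 0.000586) is a 1.97-fold lower value, and it was called in all 13 alternative fits, with -0.87 without the first mutant array. Its relative Cyp4g15 lay in the low range on all 6 arrays and was not called (adjusted p = 0.901).

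Of 22 measured genes of hydrocarbon and very long chain lipid synthesis, 4 fell and 1 rose, with a median change of -0.06. The share called, 22.7%, is near the 24.7% of all genes, and the count is no result about the pathway as a whole. Without the first mutant array 4 fell and none rose. FarO, a fatty acyl-CoA reductase of oenocytes, read 6.62, 7.06 and 7.17 in the mutant, against 9.53, 9.29 and 9.66 in the control, a change of -2.54 ± 0.16 (adjusted p = 1.25e-05). A second gene annotated as a fatty acyl-CoA reductase, CG17562, averaged 5.95 ± 0.05 in the mutant and 7.74 ± 0.15 in the control (SD, n = 3 each), a change of -1.79 ± 0.10 (adjusted p = 7.63e-06). For these genes the genotypes were clearly apart, and CG17562 lay just above the low range in the mutant. CG6660, of the fatty acid elongase family, changed by -1.21 ± 0.14 (adjusted p = 0.000516) and read 8.66, 9.22 and 9.01 in the mutant, against 10.21, 10.07 and 10.24 in the control. The fatty acid synthase gene FASN3, which acts in oenocytes, changed by -1.02 ± 0.16 (adjusted p = 0.00229), with 9.67, 10.31 and 10.07 in the mutant and 11.09, 11.10 and 10.93 in the control. Like Cyp4g1, these 4 genes lie off chromosome 2, and each was called lower in all 12 alternative fits run for the lists.

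The gene of the pathway that rose was the desaturase gene Desat1, with 11.86, 11.74 and 11.73 in the mutant and 11.24, 11.37 and 10.70 in the control (0.67 ± 0.17, adjusted p = 0.0232). Its call was lost without the first mutant array (adjusted p = 0.0757). The fatty acid synthase gene FASN1, active in fat body (0.06 ± 0.12), the elongase gene bond (0.37 ± 0.14), and spidey (0.10 ± 0.09) and Sc2 (-0.13 ± 0.09), which encode enzymes of the elongation cycle, were not called. The adult pheromone genes Fad2 and eloF lay in or near the low range in both genotypes. Cpr, the electron donor of Cyp4g1, was not analysed here.

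Of 7 oenocyte markers, 3 fell and none rose, or 42.9% called beside 24.7% of all genes. Of those 3, 2 are FarO and FASN3, which are also in the pathway list. The third, svp, the gene of a nuclear receptor that several tissues express, changed by -0.67 ± 0.19 (adjusted p = 0.0409) and was called in 7 of 12 alternative fits, but not without the first mutant array (adjusted p = 0.0506). Not called were salm (0.22 ± 0.13), spidey (0.10 ± 0.09), eloF (-0.21 ± 0.14) and FASN2, which lay in the low range on all 6 arrays. The summed linear value of the 7 markers was 3247 to 3564 on the mutant arrays and 4953 to 5383 on the control arrays. That sum includes the 3 called genes and is no measure of oenocytes as a whole. The part of the marker levels in the change of Cyp4g1 was not tested, and in RNA of whole animals fewer cells of a type and less RNA per cell cannot be told apart.

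**Figure D3:**
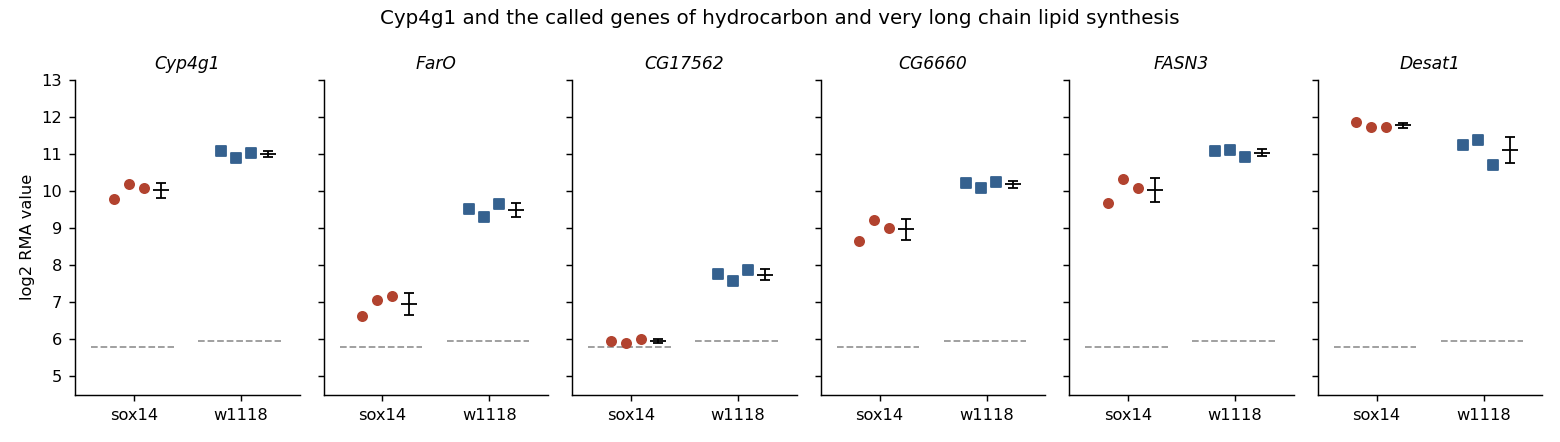
Log2 RMA values of Cyp4g1 and the 5 called genes of hydrocarbon and very long chain lipid synthesis on each array, red circles for the sox14 mutant and blue squares for w1118, bars for mean ± SD (n = 3 each), and dashed lines for the mean limit of the low range. Mutant values lie below all control values in every panel but Desat1, where all 3 lie above.

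The other CYP4 genes that fell were Cyp4d8 and Cyp4ac1. Cyp4d8 read 6.06, 5.64 and 5.72 in the mutant, against 6.998, 7.26 and 7.42 in the control. With 2 of 3 mutant values in the low range, the size of its change, -1.42 ± 0.15 (adjusted p = 0.000248), is uncertain. The right-hand neighbour of Cyp4d8 on 3L, CG8539, changed by -0.83 ± 0.16 (adjusted p = 0.00813), while Cyp316a1 on the left lay in the low range throughout and was not called. Cyp4ac1 read 6.13, 6.09 and 5.88 in the mutant, against 7.69, 7.11 and 7.19 in the control, and the change was -1.30 ± 0.16 (adjusted p = 0.000625). The mutant values of Cyp4ac1 lay just above the low range, so this size is uncertain too. In the same group, Cyp4ac2 lies between Cyp4ac1 and Cyp4ac3. Cyp4ac3 read 6.07, 5.87 and 6.25 in the mutant, against 6.46, 6.04 and 5.69 in the control. These values overlapped, with a change of -0.00 ± 0.19 (adjusted p = 0.996), and Cyp4ac2 lay in the low range on every array. The genes that flank the 3 Cyp4ac genes, the BMP receptor gene tkv (-0.03 ± 0.09) and Nin (0.20 ± 0.11), were not called.

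In the mitochondrial clan, Cyp12 genes rose on chromosome arm 3R. Cyp12a5 read 7.45, 7.24 and 7.14 in the mutant, against 6.23, 5.75 and 6.01 in the control. The change of 1.28 ± 0.14 (adjusted p = 0.000348), a 2.43-fold higher value, may be compressed, since 1 control value was in the low range. Cyp12a4, its immediate neighbour, whose overexpression gives resistance to the insecticide lufenuron, read 10.61, 10.64 and 10.60 in the mutant, against 10.22, 10.05 and 10.11 in the control. Its change was smaller, 0.49 ± 0.09 (adjusted p = 0.0054), and the spread within the mutant was only 0.02. Both were called in all 13 alternative fits. The flanking genes CG6040 (-0.08 ± 0.10) and Ppcs (0.11 ± 0.09) were not called.

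Cyp12e1 read 9.56, 9.61 and 9.51 in the mutant, against 8.90, 8.57 and 8.75 in the control. Its change was 0.82 ± 0.10 (adjusted p = 0.000811), a 1.77-fold higher value. Cyp12e1 is the only member with a further probe set of its own, which was called in the same direction (0.65 ± 0.14, adjusted p = 0.0117). Its neighbours on 3R, CG6345 and CG6465, were not called.

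Cyp12d1 is known for its induction by foreign compounds and its overexpression in strains resistant to DDT, and the fly genome sequence holds a pair of nearly identical copies, Cyp12d1-d and Cyp12d1-p, whose number differs between strains. The probe set of Cyp12d1-d alone read 5.16, 4.21 and 4.55 in the mutant, against 5.61, 5.71 and 5.94 in the control. It was called lower (adjusted p = 0.00834), but all 6 values lay in the low range. A probe set annotated to both copies, which belongs to neither gene alone and is not among the 40, read 5.61, 5.98 and 5.46 in the mutant, against 9.60, 9.25 and 9.53 in the control. The change was -3.78 ± 0.15 (adjusted p = 1.4e-06), with 2 of 3 mutant values in the low range, so that the size is uncertain. The locus lies on 2R, and its measured neighbours luna (-0.02 ± 0.10) and BBS4, which was dim, were not called.

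Cyp12c1 and Cyp12b2 were not called. Cyp12c1 read 9.74, 9.94 and 9.68 in the mutant, against 9.93, 9.83 and 9.91 in the control, with a change of -0.10 ± 0.10 (adjusted p = 0.556). Cyp12b2 lay in the low range on all 6 arrays (adjusted p = 0.136), although its mutant and control values did not overlap. Cyp49a1 lay in the low range on every array and was not called (adjusted p = 0.139; 0.0137 without the third control array). Cyp301a1, needed for the formation of the adult cuticle, lay in it on 5 of 6 arrays and was not called (adjusted p = 0.283).

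**Figure D4:**
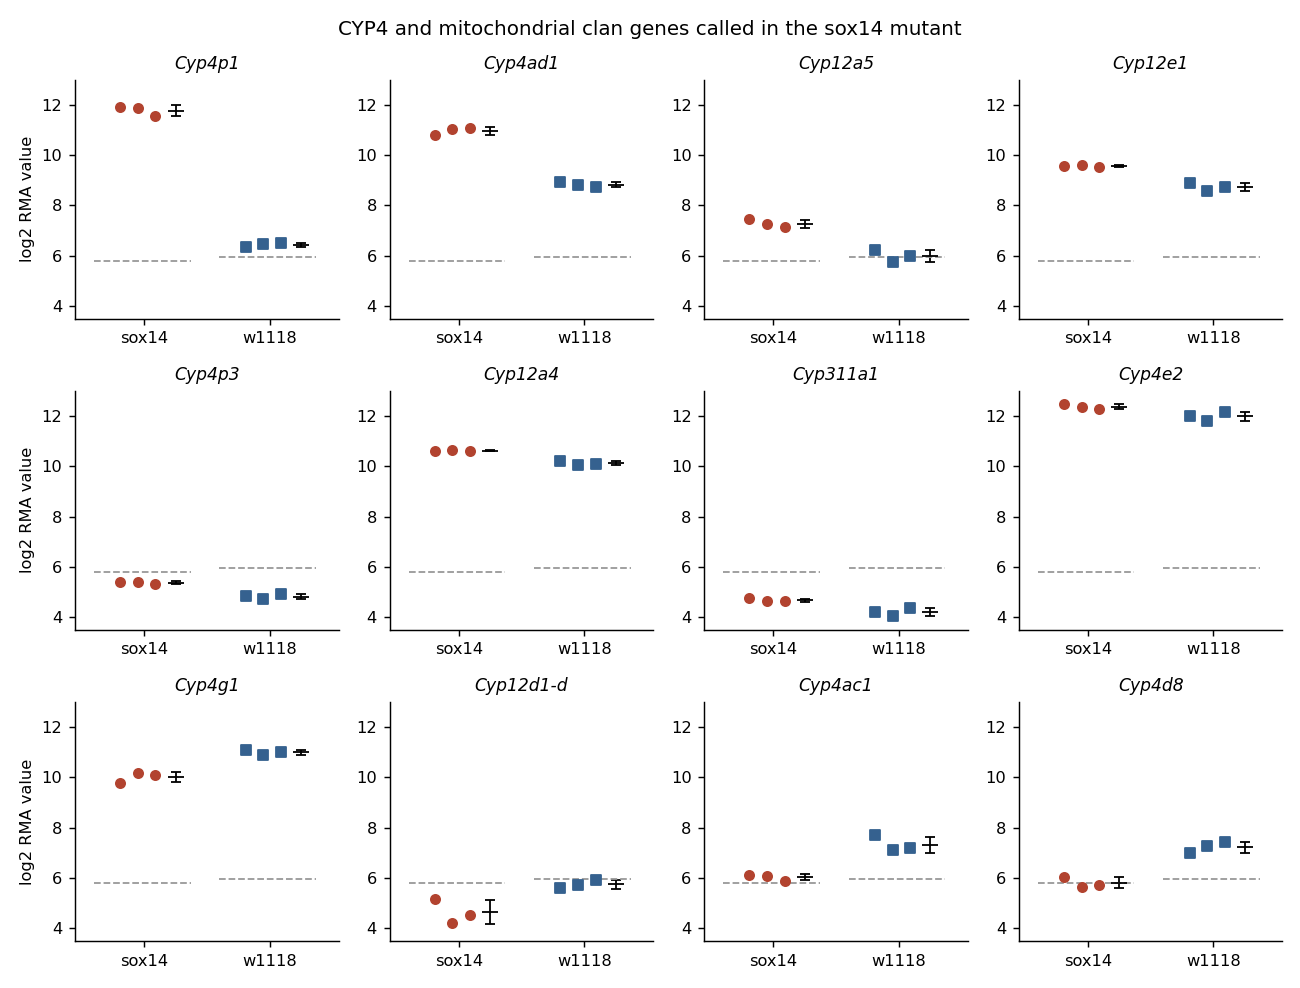
Log2 RMA values of the 12 called genes on each array, with red circles for the sox14 mutant, blue squares for w1118, bars for mean ± SD (n = 3 each) and dashed lines for the mean limit of the low range. Panels run from the highest to the lowest change, and in each the mutant values lie on 1 side of the control values. Cyp4p3, Cyp311a1 and Cyp12d1-d lie below the dashed lines in both genotypes.

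Of the 28 genes not called, 9 lay above the low range on all 3 arrays of at least 1 genotype. Cyp4d1 read 12.16, 11.72 and 12.15 in the mutant, against 11.57, 11.55 and 11.83 in the control, a change of 0.36 ± 0.14 (adjusted p = 0.124). Only its second mutant value fell among the controls, and it was called without that array (adjusted p = 0.0372; 0.0372 to 0.309 over the 13 fits). Cyp4aa1 read 6.83, 6.83 and 6.53 in the mutant, against 6.39, 6.08 and 6.45 in the control. Its genotypes did not overlap, yet the change of 0.42 ± 0.13 just missed the threshold (adjusted p = 0.059; 0.0379 to 0.182 over the 13 fits). Cyp4d2 (0.13 ± 0.17), Cyp312a1 (0.18 ± 0.13), Cyp4d14 (0.09 ± 0.09), Cyp4e3 (-0.19 ± 0.13) and Cyp4s3 (0.17 ± 0.15) changed by less than 1.5 standard errors.

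The Cyp4d genes of the X illustrate how close these values were. Cyp4d2 read 8.81, 8.34 and 8.39 in the mutant, against 8.44, 8.08 and 8.62 in the control, and Cyp4d14 read 6.48, 6.66 and 6.47 in the mutant, against 6.44, 6.43 and 6.47 in the control. Cyp312a1 on 3L read 8.87, 8.49 and 8.76 in the mutant, against 8.48, 8.71 and 8.38 in the control. Within each of these genes the difference between genotypes was no larger than the differences among arrays of 1 genotype, except that the mutant values of Cyp4d14 all lay marginally above its control values. In the same group on the X, Cyp4ae1 lay in the low range throughout.

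Members in the low range on all 6 arrays and not called numbered 18, with values of 4.05 to 5.91. They include all 6 Cyp313 genes (adjusted p of 0.0772 for Cyp313a1 and at least 0.513 for the others), Cyp4c3, Cyp4d20, Cyp318a1 and Cyp4d21, also named sxe1, a gene with male-biased expression in the adult head. Nothing can be said of their changes at this signal. Cyp311a1, which lay in the same range with 4.75, 4.66 and 4.63 in the mutant and 4.20, 4.05 and 4.38 in the control, was called higher (adjusted p = 0.0169). Its call was lost without the first (adjusted p = 0.0561) or second mutant array (0.0533) or the first control array (0.0505), within a range of 0.00678 to 0.0561 over 12 fits. Of all 1996 genes in the low range on all 6 arrays, 5.31% were called.

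Partners that P450 enzymes need moved in both directions. Of 9 measured genes for electron donors and heme synthesis, 2 rose and 2 fell, or 44.4% called beside 24.7% of all genes. The genes of the mitochondrial ferredoxins, Fdx1 and Fdx2, moved in opposite directions, and which of them serves the mitochondrial P450s was not tested. Fdx2 read 9.54, 9.43 and 9.31 in the mutant, against 11.08, 11.13 and 11.11 in the control, a change of -1.68 ± 0.09 (adjusted p = 6.7e-06). Fdx1 read 8.62, 8.62 and 8.31 in the mutant, against 8.01, 8.09 and 7.91 in the control, a change of 0.51 ± 0.11 (adjusted p = 0.0147). The fall of Fdx2 was as large without the first mutant array (-1.73), while Fdx1 was no longer called there (adjusted p = 0.0518). CG6870, which encodes a protein of the cytochrome b5 type, rose by 0.49 ± 0.13 (adjusted p = 0.0317), and Pbgs, an enzyme of heme synthesis, changed by -0.41 ± 0.12 (adjusted p = 0.0498). Neither was called without the first mutant array (adjusted p = 0.0884 and 0.138). Cyt-b5 (-0.13 ± 0.09) and Alas (0.15 ± 0.10), the gene of the first enzyme of heme synthesis, were not called.

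Of 13 regulators of detoxification genes, 2 rose and 1 fell, or 23.1% called beside 24.7% of all genes. Hr96, a nuclear receptor that responds to foreign compounds and lipids, read 9.44, 9.10 and 9.20 in the mutant, against 8.52, 8.39 and 8.43 in the control, a change of 0.80 ± 0.11 (adjusted p = 0.00124). The mutant values all lay above the controls, and the call was made in all 12 alternative fits. The other called genes of the list were usp, the partner of the ecdysone receptor, which fell (adjusted p = 0.000358), and Hr38, which was called higher (adjusted p = 0.0189) with all 6 values in the low range. The factor cnc (-0.15 ± 0.10), which drives oxidative and xenobiotic responses, its inhibitor Keap1 (-0.09 ± 0.10) and its partner maf-S (-0.18 ± 0.12) were not called.

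Among P450 genes of the CYP3 clan, 16 of 37 measured genes rose and 5 fell, or 14 and 4 without the first mutant array. The share called was 56.8%, beside 24.7% of all genes, and the difference from the 40 genes was not tested. The range in that clan ran from Cyp6d2 (-4.58) to Cyp6g1 (6.66). The size for Cyp6g1 is uncertain, since 1 of its 3 control values was in the low range. That for Cyp6d2 is uncertain as well, since its mutant values of 6.61, 6.07 and 6.23 lay just above that range. Cyp6a17 was at least 6.12-fold higher, with all 3 control values in the low range, and Cyp6a13 rose by 2.95 ± 0.11. These named CYP3 genes all lie on 2R, where an effect of Sox14 cannot be told apart from variants linked to it. The mitochondrial P450s outside the symbol rule are enzymes of ecdysteroid synthesis, of which shd (-1.95 ± 0.12) and dib (-0.56 ± 0.17) fell and sad (-0.46 ± 0.17, adjusted p = 0.109) was not called. The call of dib was lost without the first mutant array (adjusted p = 0.155). Of 7 CYP2 clan genes only phtm (14.3%) was called, with a change of -1.67 ± 0.16.

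Markers of tissues in which P450 genes act moved unequally between genotypes. Of 11 midgut enterocyte markers 9 rose and none fell, with and without the first mutant array, and their summed linear value was 118995 to 133715 on the mutant arrays and 54952 to 57544 on the control arrays. None of these 11 lay in the low range on all 6 arrays. The largest rises were those of the trypsin genes epsilonTry, by 6.66 ± 0.19 or 101-fold, and betaTry, by 5.82 ± 0.17 or 56.4-fold, both on 2R. Mal-A1, given above, and the magro lipase gene mag (1.53 ± 0.19, on 3L) followed, and these 4 genes were called in all 12 alternative fits. Of 9 Malpighian tubule markers 2 rose and 2 fell, led by the potassium channel genes Irk1 (-1.09 ± 0.09) and Irk2 (0.93 ± 0.12), with sums of 3832 to 4260 in the mutant and 4415 to 4678 in the control. Of 6 fat body markers 1 rose and 2 fell, with sums of 119642 to 120365 in the mutant and 146289 to 149880 in the control. The rise of the fat body gene and 1 of the 2 rises of the tubule genes were not called without the first mutant array. The fat body gene Fbp2 changed by -0.86 ± 0.11 and the lipid droplet gene Lsd-1 by -1.03 ± 0.17. The shares called were 81.8% for the midgut list, 44.4% for the tubule list and 50% for the fat body list, beside 24.7% of all genes. The part of these tissue markers in the changes of the P450 genes was not tested.

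Of 8 hindgut and trachea markers 2 rose and 2 fell, of 6 epidermis and cuticle markers 1 rose, of 6 markers of glia and neurons 1 rose and 2 fell, and of 11 testis markers 1 rose and 1 fell. The shares called were 50% for the hindgut and trachea list and for the glia and neuron list. They were 16.7% for the epidermis list, 18.2% for the testis list and 20% for the stage list given next, beside 24.7% of all genes. The glial gene repo changed by -0.71 ± 0.11 and moody, of the blood-brain barrier, by 0.50 ± 0.10, while the tracheal genes btl and Gasp changed by -0.64 ± 0.17 and 0.62 ± 0.11. Without the first mutant array, both testis calls, both falls of the hindgut and trachea list and 1 fall of the glia and neuron list were lost. Of 15 genes of the late larval and prepupal stage list 2 rose and 1 fell, or 1 and 1 without the first mutant array, with summed values of 124223 to 193041 in the mutant and 177383 to 189648 in the control. The called genes were Sgs4 (2.03 ± 0.53), a glue gene whose call was lost without the first mutant array (adjusted p = 0.104), ImpL2 (0.96 ± 0.16) and the nuclear receptor gene Eip78C (-1.14 ± 0.26). The sums of the stage list, which include the glue genes low on the second mutant array, overlapped between genotypes, and those of the testis list did too, at 9617 to 12274 in the mutant and 8096 to 13630 in the control.

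**Figure D5:**
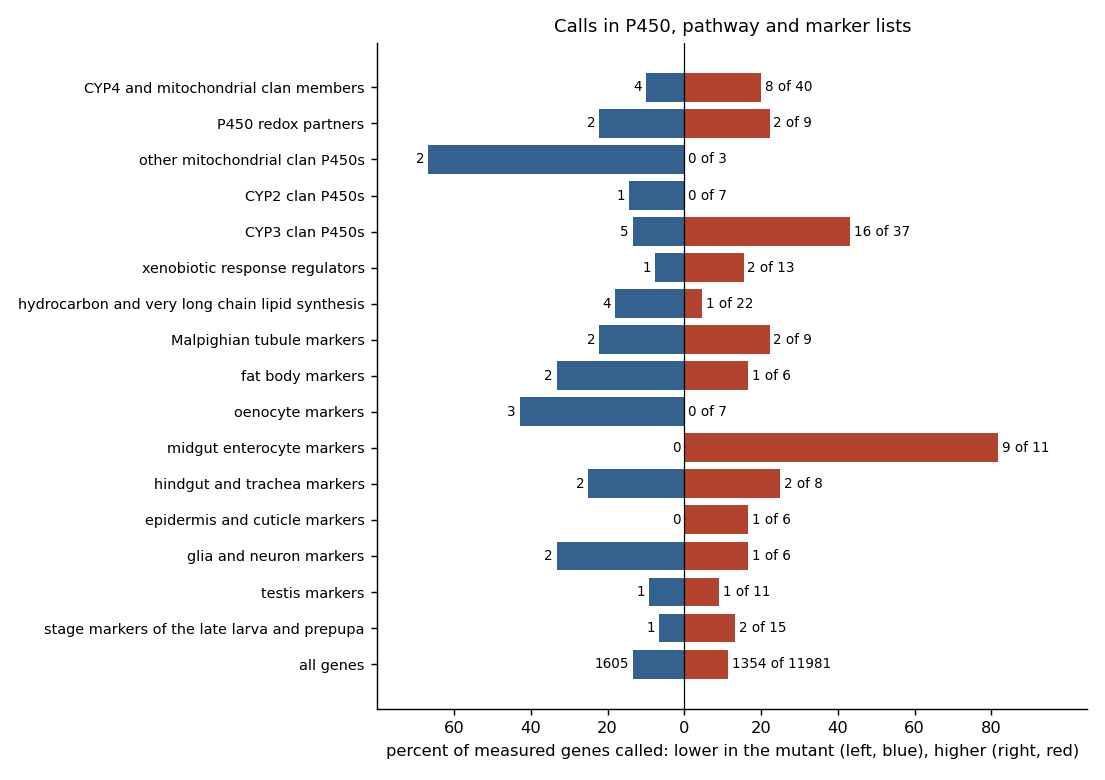
Percent of the measured genes of each list called higher (right, red) and lower (left, blue) in the sox14 mutant against w1118 at an adjusted p under 0.05, with counts beside the bars. For the 40 CYP4 and mitochondrial clan genes 8 rose and 4 fell, beside 11.3% and 13.4% of all genes in the bottom row.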

How the data were processed

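The authors deposited 1 log2 value per probe set and array. The submitters' processing notes name RMA and Affymetrix Expression Console 1.1 as the tools. Values normalised in this way between arrays do not show the amount of RNA per animal. No genome build is named in the sources used.

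The titles gave each sample its genotype. Of 18952 probe sets, 183 controls were left out. The other 18769 were tested, and the platform annotation gives 13646 of them 1 gene, 402 several and 4721 none. All 40 members matched RefSeq (Release 6 plus ISO1 MT), which gave chromosome arms and gene order only. Mutant and control arrays were compared by limma (version 3.58.1, lmFit and eBayes, under R 4.3.3) in 2-sided tests. The p-values were adjusted by Benjamini-Hochberg across the tested probe sets, with 0.05 as the limit for a call. Every adjusted p comes from this fit or its alternatives, and the code was tested on simulated data. Precision is limited by the number of arrays.

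The members and lists were chosen with earlier results of these data known. By rule, values on every array are given for called members and the 6 brightest not called, and up to 4 called genes of a list by size of change, or its 2 brightest, are named. Others, named after their values were seen, are flanking genes, genes not called, and the shared Cyp12d1 probe set. For the low range, 2 of 100 AFFX-Dm control probe sets, higher in the mutant by over 2, were left out, also after seeing the data. With all 100 kept, the limit was 6.36, 6.72 and 6.75 on the mutant arrays and 5.93 to 5.96 on the control arrays. All mutant values of Cyp4ac1, Cyp4d8 and CG17562 lay below those limits, so the sizes of their changes depend on this choice. No sequences of the members were used here, so the planned motif search was not run.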

Additional observations from a re-analysis of the deposited data

How the results depend on the processing

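Counts of members called higher ranged from 6 to 9 and of those called lower from 3 to 6 over 16 alternatives, among them array weights, a variance that was robust and trended, quantile normalisation, centring on array medians, averages over all probe sets of a gene, no probe sets from the dimmest 40%, a limit of 0.01, and only probe sets without a suffix for shared or alternative transcripts. Leaving out members in the low range on all 6 arrays, an alternative chosen after seeing the data, gave 6 higher and 3 lower. With each array left out in turn, 6 to 9 were called higher and 4 to 5 lower, and the median change was 0.03 to 0.12. The numbers 1 to 3 in the titles were not taken as pairs in the main fit. Correlations of deviations from the group means were 0.17, -0.10 and -0.02 for same-numbered arrays and -0.26 to 0.26 for the others. With so few arrays these values cannot decide whether the arrays were paired. With the replicate block 7 members were called higher and 4 lower, Cyp4e2 being lost (adjusted p = 0.0762). Of the 12 calls, 10 held in all fits run for them, the exceptions being Cyp4e2 and Cyp311a1, and no member reversed. Of 28 members not called, 5 were called in at least 1 fit, namely Cyp4aa1, Cyp4d1, Cyp4e1, Cyp49a1 and Cyp313a1. The hydrocarbon list kept its count of 4 lower in every alternative, while the redox partners gave 0 to 2 higher and 1 to 2 lower, and the oenocyte markers 2 to 3 lower. Median centring moved the median of all probe sets by -0.04. Weak signal limits the 21 members in the low range.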
